A study of Mus musculus with 6 samples.

Results

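Collagens, laminins and the other structural genes of the meninges and basement membranes were followed in the embryonic neocortex of 3 wild-type mice (WT) and 3 mice heterozygous for a Rest allele lacking exon 4 (Rest_het). A gene was a member if its symbol named a collagen chain (Col, a number, a, a number), a laminin chain (Lama, Lamb or Lamc with a number), Fn1, Nid1, Nid2, Dcn, Lum, Bgn or Ogn. This rule found 62 of 48709 gene IDs, used no measured value, and every one of the 62 had reads. All embryos were C57BL/6 at E15.5, the tissue was dissected neocortex, and RNA was reverse transcribed from its poly(A) tails. The labels name separate mice and give no sex, litter or preparation batch, so p-values measure the spread between these mice only. The WT libraries, and no other, held LacZ reads, and Cre-ERT2 reads came from the Rest_het libraries, although the labels mention no transgene, so the effects of the Rest allele and of anything else that differs between the groups cannot be told apart.

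The brain parenchyma holds little fibrous matrix. Fibrillar collagens are made mainly by fibroblasts of the meninges, the membranes that cover the cortex, where decorin, lumican and biglycan bind and space the fibrils. Type IV collagen, laminins and nidogens form the sheet-like basement membranes beneath the pia and around blood vessels, and the end feet of radial glia attach to the pial one. In bulk RNA, fewer cells of a type and less RNA per cell cannot be told apart.

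The sequences of 3 regions are given for the genes on which the results turn: the promoter of Col3a1, the most abundant member, the short gap between the starts of Col4a3 and Col4a4, divergent genes of which the former separated the genotypes, and the promoter of Bgn, a proteoglycan of the meningeal matrix. They are copied from RefSeq on GRCm38.p6, 5′ to 3′ on the strand stated, and end at the base before the annotated start. The gap lies at chr1:82586850-82586920 and is printed on the minus strand, so that Col4a4 begins at its right end and Col4a3 at its left end in the opposite direction. The Col3a1 promoter is chr1:45311288-45311537 on the plus strand and the Bgn promoter chrX:73483351-73483600 on the plus strand. Capitals mark a match to the letters of the TATA box, searched as TATAAA, in the Col3a1 promoter. In the Bgn promoter they mark GC boxes, searched as GGGCGG, which lie on the minus strand there and so appear as the reverse complement.
Col3a1 promoter: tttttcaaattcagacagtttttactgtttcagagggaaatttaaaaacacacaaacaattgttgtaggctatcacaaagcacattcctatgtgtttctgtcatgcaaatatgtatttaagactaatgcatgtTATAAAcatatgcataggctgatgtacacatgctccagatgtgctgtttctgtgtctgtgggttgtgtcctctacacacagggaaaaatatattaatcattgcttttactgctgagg
Col4a3 Col4a4 gap: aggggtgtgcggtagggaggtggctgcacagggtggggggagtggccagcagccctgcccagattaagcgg
Bgn promoter: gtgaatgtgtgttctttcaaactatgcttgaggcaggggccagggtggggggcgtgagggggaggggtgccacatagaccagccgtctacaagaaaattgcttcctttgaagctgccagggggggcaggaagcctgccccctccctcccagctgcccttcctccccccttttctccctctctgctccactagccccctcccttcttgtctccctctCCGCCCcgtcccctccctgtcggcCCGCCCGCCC
The TATAAA match in the Col3a1 promoter lies 117 to 112 bases before the start. In Bgn the GC boxes lie 34 to 29, 10 to 5 and 6 to 1 bases before the start, and the last pair overlap by 2 bases. No TATA box, GC box or CCAAT box was found on either strand of the 71 bases between Col4a3 and Col4a4. Among the 250 bases before the start, searched on both strands, the GC box was present in 55.3% of 47 promoters belonging to 43 members and in 32.7% of all 32851 promoters. The TATA box was present in 12.8% and 12.4%, and the CCAAT box, searched by those letters, in 31.9% and 33.9%. These matches describe letters and are not evidence of binding.

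Levels are given as CPM, read counts scaled to a common library size with TMM factors, which correct each library for its composition, and in the order of replicates 1, 2 and 3. Gene reads ranged from 17835117 to 20753653 per library. Rest itself measured 21.03, 19.73 and 21.11 CPM in WT and 16.70, 19.01 and 18.59 CPM in Rest_het, with an edgeR adjusted p of 0.49; the total covers all exons and does not check the deletion. The 10 markers of cortical neurons summed to 2572 to 3081 CPM per library. Single markers ranged from Slc17a7, at 1.96 to 3.76 CPM, to Tubb3, at 810 to 1019 CPM. Of the 62 members, 43 had enough reads to be tested and 19 did not, the latter with a mean of at most 0.504 CPM and no library above 1.22 CPM. Only 11 averaged 10 CPM or more, and 6 of those tested lay under 1 CPM.

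No member differed between the genotypes by edgeR's quasi-likelihood test at an adjusted p under 0.05, and the larger differences were between libraries of the same genotype. Of all 15385 genes tested, 19 were called (0.123%). At an unadjusted p under 0.05, 2 members were higher in Rest_het (Lamb2 and Col26a1), against 6.98% of all genes, and 3 were lower (among them Col4a3 and Col15a1), against 4.72%. The 3 Rest_het values all lay above the 3 WT values for 3 members (Col6a1, Col22a1 and Lamb2) and all below for 3 (among them Col4a3 and Col15a1). Each count is 6.98% of the members, against 10.4% above and 8.94% below among all genes tested, so such separation was no more frequent among the members than elsewhere. The median log2 fold change of the members was 0.11, with 28 above 0 and 15 below, beside 0.01 for all genes. The median turned to -0.115 without Rest_het replicate 3 and was 0.355 without WT replicate 1. The interval of 1.96 SE on each side lay within a 2-fold change either way for 22 members and within 1.5-fold for 3. For the other 21 a change of 2-fold or more lay inside the interval. The interval is narrower than the edgeR test, so 22 and 3 are upper limits. For Col4a1 it ran from 1.05 to 1.94, clear of a ratio of 1, although the unadjusted edgeR p was 0.0517.

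**Figure D1:**
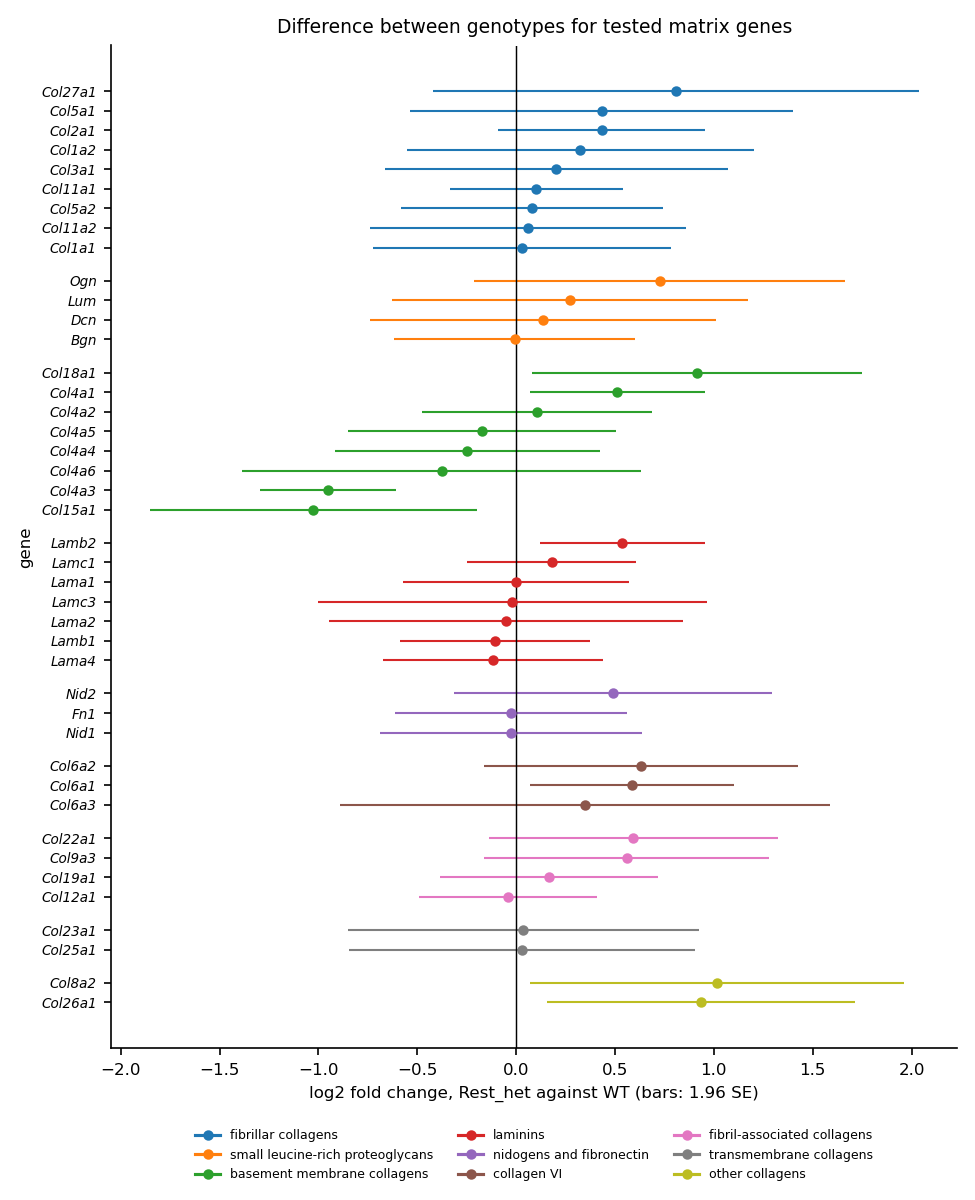
Log2 fold change of Rest_het against WT (horizontal axis) for 42 of the 43 tested members, one row each and coloured by role; points are edgeR estimates and bars reach 1.96 SE on each side. Values run from -1.02 (Col15a1) to 1.02 (Col8a2), and 28 of the points lie above 0. The bars are narrower than the edgeR test, so a bar clear of 0 can have an unadjusted edgeR p above 0.05.

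The fibrillar collagens, which assemble into the fibres of skin, bone and meninges, were the most abundant role list by summed CPM. Col3a1, Col1a1 and Col1a2 led it, and other fibrillar chains were low. Summed over 11 genes, they measured 397, 154 and 229 CPM in WT and 297, 161 and 427 CPM in Rest_het. Of the 11, 9 were tested and none was called, all 9 lying above 0 with a median difference of 0.20 on the log2 scale. That direction depended on single libraries: without Rest_het replicate 3, 6 of the 9 lay below 0, and without WT replicate 2, 3 did. WT replicate 1 and Rest_het replicate 3 were high and the replicates numbered 2 were low in both groups, so that the groups overlapped.

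Col3a1 (ENSMUSG00000026043, chromosome 1, 45311538 to 45349706 in GRCm38) encodes the single chain of type III collagen. Its level was 194, 65.1 and 106 CPM in WT and 152, 70.2 and 198 CPM in Rest_het. The highest WT library was close to the highest Rest_het library and the lowest WT library close to the lowest, and the log2 fold change of 0.20 (SE 0.44, edgeR adjusted p = 0.88) was within that spread. Type I collagen is built from the products of Col1a1 and Col1a2. Col1a1 measured 101, 46.5 and 53.0 CPM in WT and 60.8, 39.7 and 104 CPM in Rest_het, means of 66.98 ± 29.96 and 68.34 ± 33.03 CPM (SD, n = 3). Col1a2 measured 70.5, 24.0 and 43.4 CPM in WT and 56.6, 28.8 and 87.4 CPM in Rest_het. Both were highest in WT replicate 1 and Rest_het replicate 3 and lowest in the replicates numbered 2 within their groups, as Col3a1 was, and their log2 fold changes of 0.03 (SE 0.38) and 0.32 (SE 0.45) had edgeR adjusted p of 0.985 and 0.802. Col3a1, Col1a1 and Col1a2 together made up 43.6% of the summed CPM of the members.

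Col5a2, a chain of type V collagen, which starts fibril assembly, measured 15.1, 6.49 and 12.1 CPM in WT and 11.2, 8.09 and 16.4 CPM in Rest_het. It differed by 0.08 on the log2 scale (SE 0.34, edgeR adjusted p = 0.95), again with the 2 groups overlapping. Col2a1, the chain of cartilage collagen, departed from this order. It measured 2.15, 2.11 and 3.14 CPM in WT and 2.86, 4.21 and 2.92 CPM in Rest_het, where replicate 2 was the highest library, and WT replicate 3 lay above the other Rest_het libraries (log2 fold change 0.43, SE 0.27, edgeR adjusted p = 0.54). The other tested fibrillar chains, Col11a1, Col5a1, Col11a2 and Col27a1, had means of 0.841 to 9.29 CPM and log2 fold changes of 0.06 to 0.81, and Col5a3 and Col24a1 were too low to test.

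The small leucine-rich proteoglycans, which coat collagen fibrils, were highest in the same libraries. All 4 were tested and none was called. Dcn, encoding decorin, measured 50.7, 18.6 and 21.8 CPM in WT and 29.998, 18.6 and 51.6 CPM in Rest_het (log2 fold change 0.14, SE 0.45, edgeR adjusted p = 0.93). Bgn, encoding biglycan, measured 32.3, 18.5 and 22.7 CPM in WT and 22.86, 14.96 and 35.32 CPM in Rest_het (log2 fold change -0.01, SE 0.31, edgeR adjusted p = 0.995). Lum, encoding lumican, measured 17.97, 5.96 and 9.68 CPM in WT and 11.8, 7.37 and 21.5 CPM in Rest_het (log2 fold change 0.27, SE 0.46, edgeR adjusted p = 0.84). In each of these genes WT replicate 1 and Rest_het replicate 3 were the highest pair of libraries, and the groups overlapped. Ogn, encoding osteoglycin, was lower, between 1.34 and 7.12 CPM, and was also highest in Rest_het replicate 3, but lowest in WT replicate 3.

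**Figure D2:**
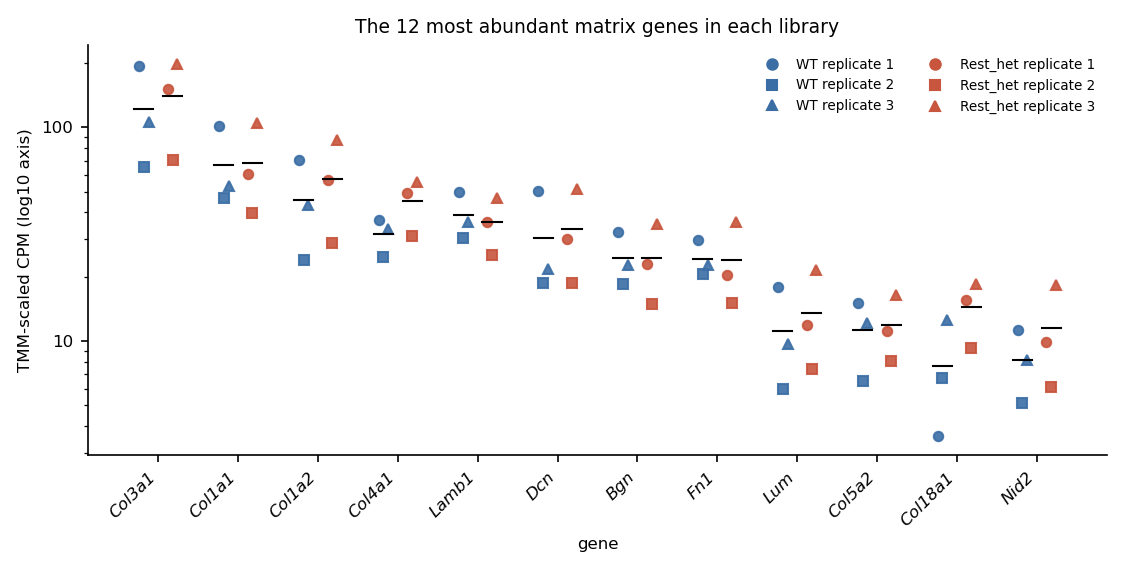
TMM-scaled CPM (vertical log10 axis) of the 12 members with the highest mean, 1 point per library, WT in blue and Rest_het in red, with black lines at the group means. In 11 of the 12 genes WT replicate 1 and Rest_het replicate 3 are the top libraries of their groups; Col18a1, lowest in WT replicate 1 at 3.58 CPM, is the exception.

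Among basement membrane collagens, Col4a1 and Col4a2 form the network found in nearly all basement membranes, while Col4a3 to Col4a6 encode chains of more restricted networks. The list of 9 held 8 tested genes, of which 3 lay above 0 and 5 below, and none was called. Col4a1, on chromosome 8 from 11198423 to 11312826, measured 37.0, 24.8 and 33.5 CPM in WT and 49.5, 31.0 and 55.5 CPM in Rest_het. Its lowest Rest_het library lay below 2 of the WT libraries, and its log2 fold change of 0.51 (SE 0.22) had an edgeR adjusted p of 0.43. Col4a2 measured 11.7, 5.91 and 9.01 CPM in WT and 11.2, 6.26 and 11.2 CPM in Rest_het (log2 fold change 0.11, SE 0.30, edgeR adjusted p = 0.91), with overlapping groups.

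Col4a3 came nearest to a difference between the genotypes. The gene (ENSMUSG00000079465) lies on the plus strand of chromosome 1 from 82586921 to 82722059. It measured 8.70, 7.38 and 6.44 CPM in WT and 3.89, 3.77 and 3.98 CPM in Rest_het, means of 7.51 ± 1.14 and 3.88 ± 0.108 CPM (SD, n = 3). The lowest WT library exceeded the highest Rest_het library, and unlike most members the gene did not share the high values of Rest_het replicate 3. The log2 fold change was -0.95 (SE 0.17), a ratio of 0.517 with an interval of 0.408 to 0.656, from 125 to 182 reads per WT library and 68 to 75 per Rest_het library. Its edgeR unadjusted p was 0.00058 and its adjusted p 0.198. DESeq2 gave -0.96 (SE 0.23) with an adjusted p of 0.00872 and edgeR without the count filter an adjusted p of 0.0426. Both called it, among 131 of 15946 genes called by DESeq2 (0.822%) and 107 of 28794 called without the filter (0.372%), and it was the single member called by either. Over the 6 fits that left out 1 library it ranged from -1.05 to -0.83, with edgeR adjusted p of 0.199 to 0.479.

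Col4a4, whose start faces that of Col4a3 across the 71 bases printed above, measured 2.25, 1.64 and 2.01 CPM in WT and 2.05, 0.942 and 1.97 CPM in Rest_het. The groups overlapped, with a log2 fold change of -0.25 (SE 0.34, edgeR adjusted p = 0.805). Col4a3 shares 563 exon bases, 5.65% of its exon length, with C430014B12Rik on the opposite strand, which had at most 3 reads in any library. All 19 called genes lie on 3 chromosomes, 6 of them on chromosome 5, 4 on chromosome 8 and 9 on chromosome 1 between 68115195 and 127679548. The stretch on chromosome 1 also holds Col4a3, Col4a4, Col6a3 (log2 fold change 0.35) and Fn1 (-0.03). The part of position in the difference of Col4a3 was not tested.

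Type XVIII and type XV collagen carry heparan or chondroitin sulfate chains and sit in basement membranes, the former being the source of endostatin. Col18a1 measured 3.58, 6.75 and 12.6 CPM in WT and 15.51, 9.25 and 18.43 CPM in Rest_het. WT replicate 1 was its lowest library rather than one of the highest, the groups overlapped, and the log2 fold change of 0.92 (SE 0.43) had an edgeR adjusted p of 0.44. Col15a1 measured 0.812, 0.686 and 1.39 CPM in WT and 0.324, 0.554 and 0.531 CPM in Rest_het. All WT values were above all Rest_het values, from 6 to 27 reads per library, with a log2 fold change of -1.02 (SE 0.42, edgeR unadjusted p = 0.0411, adjusted p = 0.416). Col4a5 and Col4a6, whose starts lie 1308 bases apart on chromosome X, had log2 fold changes of -0.17 and -0.38, and Col7a1 was too low to test.

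**Figure D3:**
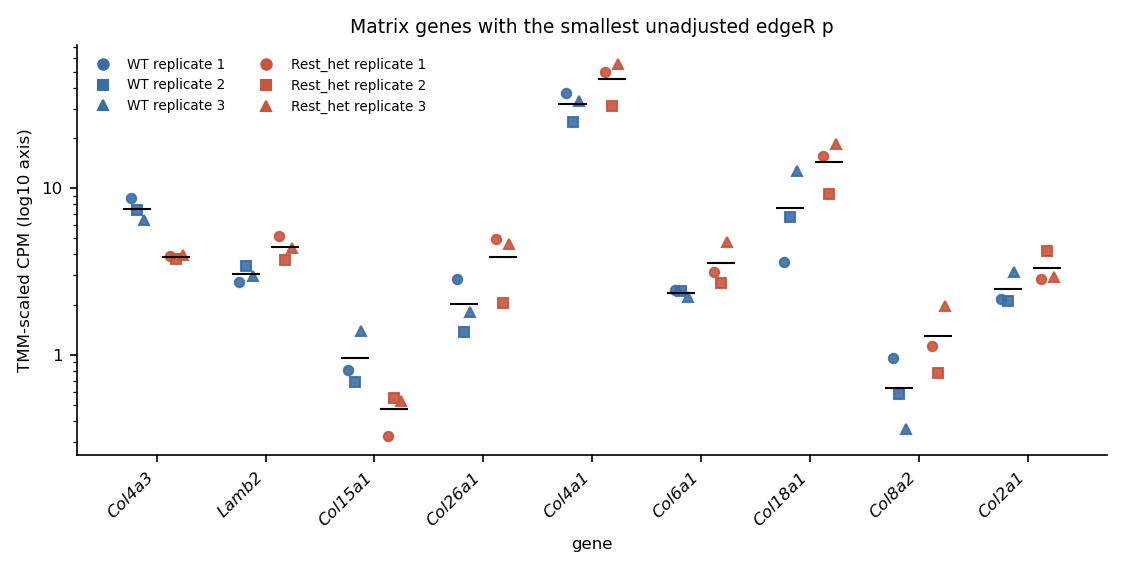
TMM-scaled CPM (vertical log10 axis) of 9 of the 10 members with the smallest unadjusted edgeR p, 1 point per library, with black lines at the group means. Col4a3 is separated most clearly, with Rest_het libraries between 3.77 and 3.98 CPM and WT libraries between 6.44 and 8.70 CPM.

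Laminins are trimers of an alpha, a beta and a gamma chain that bind cells to the basement membrane. Of the 11 genes, 8 were tested, 2 above and 6 below 0, none was called, and their middle value was -0.03 on the log2 scale. Lamb1, the beta chain of the main laminin of early basement membranes, measured 50.1, 30.4 and 36.1 CPM in WT and 36.2, 25.3 and 46.8 CPM in Rest_het (log2 fold change -0.11, SE 0.24, edgeR adjusted p = 0.89). Its highest and lowest libraries in each group were those of the fibrillar collagens. Lamb2, the beta chain of vascular and synaptic laminins, measured 2.72, 3.43 and 2.99 CPM in WT and 5.19, 3.71 and 4.36 CPM in Rest_het. The 3 Rest_het values were above the 3 WT values, by 0.54 on the log2 scale (SE 0.21, edgeR unadjusted p = 0.0349, adjusted p = 0.404). Lama3, Lamb3 and Lama5 were too low to test. Lama1, Lama2, Lama4, Lamc1 and Lamc3 had log2 fold changes of -0.12 to 0.18 and overlapped between the groups.

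Fibronectin, the product of Fn1, links cells to collagen, and nidogens bridge laminin and type IV collagen. Fn1 measured 29.6, 20.6 and 22.8 CPM in WT and 20.38, 15.02 and 36.28 CPM in Rest_het (log2 fold change -0.03, SE 0.30, edgeR adjusted p = 0.98). Nid2 measured 11.2, 5.12 and 8.14 CPM in WT and 9.95, 6.10 and 18.4 CPM in Rest_het (log2 fold change 0.49, SE 0.41, edgeR adjusted p = 0.65). Rest_het replicate 3 was the highest library and a replicate numbered 2 the lowest for Fn1, Nid2 and Nid1 alike, and the groups overlapped in each. Nid2 shares 437 exon bases, 8.45% of its exon length, with Rtraf on the opposite strand, and reads from there cannot be assigned without strand. Rtraf had 1562 to 1838 reads per library and Nid2 97 to 346.

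Type VI collagen forms beaded filaments around cells from the products of Col6a1, Col6a2 and Col6a3. Col6a1 measured 2.44, 2.43 and 2.21 CPM in WT and 3.13, 2.72 and 4.78 CPM in Rest_het. Its groups were separate (log2 fold change 0.59, SE 0.26, edgeR unadjusted p = 0.0563, adjusted p = 0.433), while those of Col6a2 (0.63, SE 0.40) and Col6a3 (0.35, SE 0.63) overlapped. Col6a4, Col6a5 and Col6a6 were too low to test. Of the 9 fibril-associated collagens 4 were tested. Col12a1, which binds type I collagen fibrils, measured 4.92, 4.80 and 3.19 CPM in WT and 4.38, 3.55 and 4.62 CPM in Rest_het (log2 fold change -0.04, SE 0.23, edgeR adjusted p = 0.96). Col22a1 was separate and higher in Rest_het, with 0.686 to 0.979 CPM in WT and 1.01 to 1.94 CPM in Rest_het (log2 fold change 0.59, SE 0.37, edgeR adjusted p = 0.54). Col9a3 and Col19a1 overlapped.

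The transmembrane collagens span the cell membrane. Col23a1 measured 12.1, 3.38 and 5.72 CPM in WT and 6.70, 4.88 and 10.3 CPM in Rest_het (log2 fold change 0.04, SE 0.45, edgeR adjusted p = 0.98), in the library order of the fibrillar collagens. Col25a1 had a log2 fold change of 0.03, and Col13a1 and Col17a1 were too low to test. Col26a1, on chromosome 5, measured 2.87, 1.37 and 1.80 CPM in WT and 4.92, 2.05 and 4.62 CPM in Rest_het. The lowest Rest_het library lay below the highest WT library, and the log2 fold change of 0.93 (SE 0.40) had an unadjusted edgeR p of 0.0463 and an adjusted p of 0.42. Col26a1 lies in the stretch from 107106570 to 138107822 that holds the 6 called genes of chromosome 5. The part of position in its difference was not tested. Col8a2, a short-chain collagen, measured 0.956, 0.580 and 0.360 CPM in WT and 1.14, 0.776 and 1.97 CPM in Rest_het (log2 fold change 1.02, SE 0.48, edgeR adjusted p = 0.45), again with overlap. Col8a1, Col10a1 and Col28a1 were too low to test.

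Levels were also divided by exon length, counting every base in any annotated exon of the gene. That length was 6563 bases for Col1a1 and 12426 for Col1a2, so comparisons between genes depend on the annotation. Per kilobase of exon, Col3a1 had a mean over the 6 libraries of 13.3 CPM per kb and Col1a1 10.3. Dcn followed at 5.46, Col4a1 at 5.16 and Lum at 5.06 CPM per kb. These last 3 were closer to each other than their libraries were, since Dcn alone ranged from 18.6 to 51.6 CPM. Col1a2 had 4.17, Bgn 4.01, Lamb1 3.78, Fn1 2.06 and Nid2 1.90 CPM per kb. The order of neighbours by group mean differed between the genotypes. None of the orders given next held in every library of its group, and the difference was not tested. In WT, Col4a1 (4.25) lay below Lum (4.58), and Col1a2 (3.70) below Bgn (4.02) and Lamb1 (3.92), whereas in Rest_het Col4a1 (6.07) lay above Dcn (5.72) and Col1a2 (4.63) above Bgn (4.00).

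Ratios between chains of the same protein or family, on the per kilobase scale, remove what both chains share in a library. Their level depends on the exon lengths, which are the same for every library, so only libraries are compared. They were computed for 8 pairs after the values had been seen and tested by an exact two-sided permutation test over the 3 and 3 libraries, which cannot give a p below 0.1. The ratio of Col4a1 to Col4a2 was 2.81, 3.72 and 3.29 in WT and 3.92, 4.40 and 4.39 in Rest_het. All Rest_het ratios were higher (exact p = 0.1, adjusted over the 8 pairs p = 0.4). The ratio of Nid1 to Nid2 was 0.805, 1.04 and 0.726 in WT and 0.624, 0.637 and 0.534 in Rest_het. All Rest_het ratios were lower (exact p = 0.1, adjusted p = 0.4), with the Rtraf overlap of Nid2 applying here too. Col1a1 to Col1a2 was 2.72, 3.67 and 2.32 in WT and 2.03, 2.62 and 2.26 in Rest_het (exact p = 0.2, adjusted p = 0.533). For the other 5 pairs the groups overlapped, with exact p of 0.3 to 1.0.

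**Figure D4:**
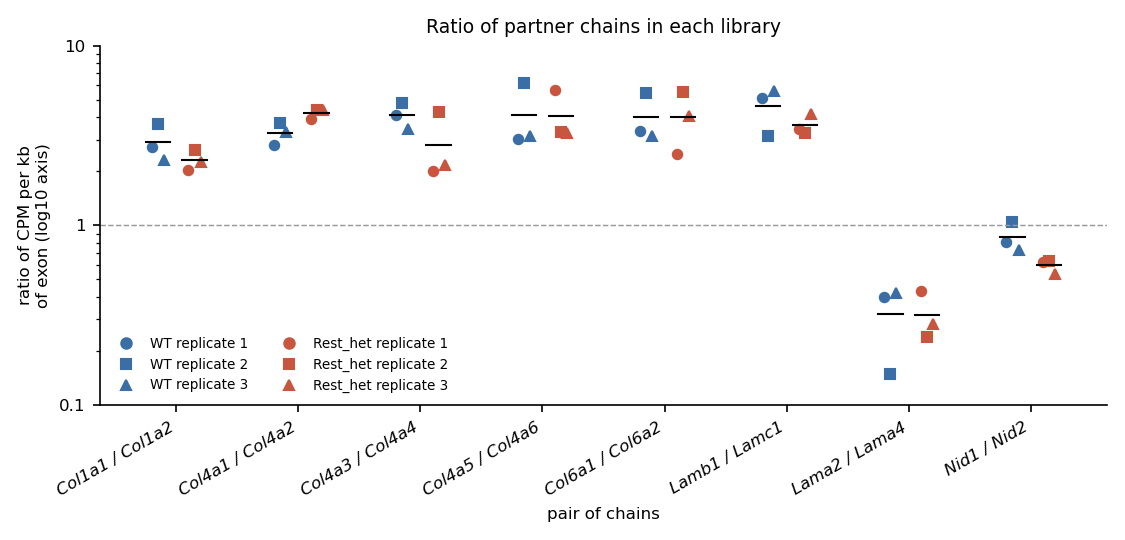
Ratio of CPM per kb of exon between 8 pairs of related chains (vertical log10 axis), 1 point per library, with black lines at the group means and a dashed line at a ratio of 1. The groups are separate for Col4a1 / Col4a2, higher in Rest_het, and Nid1 / Nid2, lower in Rest_het, and overlap for the other 6 pairs.

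The order of libraries was the most regular feature of the members. Summed over all 62, the level was 760, 367 and 492 CPM in WT and 607, 363 and 850 CPM in Rest_het. WT replicate 1 and Rest_het replicate 3 were high and the replicates numbered 2 low, and the sum varied more within each genotype than between them. As a log2 deviation from the gene's mean over 6 libraries, the median of the tested members was 0.38, -0.49 and -0.08 in WT and 0.12, -0.45 and 0.57 in Rest_het, while the median of all genes lay within 0.011 of 0 in every library. The highest library was WT replicate 1 or Rest_het replicate 3 for 34 of 43 members (79.1%) and for 35.0% of all genes tested. The lowest was one of the replicates numbered 2 for 30 members (69.8%) and for 33.8% of all genes. Of the 11 members with a mean of at least 10 CPM, 10 were highest in Rest_het replicate 3 and the other, Lamb1, in WT replicate 1. The median coefficient of variation within a genotype was 36.9% for the members and 13.3% for all genes, and 46.2% against 8.69% at a mean of at least 10 CPM. These libraries were picked out after their values had been seen, so the counts are descriptions.

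Markers of meningeal fibroblasts and endothelium followed the same order, and mural cell markers did so in their median but not in their sum. The 20 markers of meningeal fibroblasts summed to 252 to 449 CPM in WT and 267 to 449 CPM in Rest_het. Of 19 tested, 18 were highest in WT replicate 1 or Rest_het replicate 3, and none was at 0 in all libraries. The most abundant were Vim, which radial glia also express, and Cxcl12, at 116, 61.5 and 86.3 CPM in WT and 107, 60.2 and 115 CPM in Rest_het. The 14 endothelial markers summed to 112 to 197 CPM in WT and 130 to 198 CPM in Rest_het, and 12 were highest in one of those same libraries. The 11 mural cell markers summed to 194 to 291 CPM in WT and 270 to 1496 CPM in Rest_het, a range set by Rgs5, at 216, 152 and 181 CPM in WT and 1432, 1161 and 196 CPM in Rest_het, and 8 were highest in one of those libraries. The 8 choroid plexus markers summed to 3.59 to 58.8 CPM in WT and 8.48 to 378 CPM in Rest_het, led by Ttr at 53.0, 2.27 and 3.09 CPM in WT and 169, 5.49 and 357 CPM in Rest_het. The 8 blood markers summed to 513 to 647 CPM in WT and 313 to 628 CPM in Rest_het. All 7 tested were highest in WT replicate 1 or Rest_het replicate 3, yet all 7 were lowest in Rest_het replicate 1, unlike the members. The medians of the radial glia and cortical neuron markers stayed within 0.108 of 0 on the log2 scale in every library. The 10 cartilage and bone markers summed to at most 4.81 CPM and the 10 skin and muscle markers to at most 4.16 CPM in any library, with Matn1, Acan, Bglap and Ckm at 0 in 4 or 5 of the 6. Read pairs that fell in no annotated gene were 26.9, 22.8 and 24.8% in WT and 21.8, 21.4 and 25.5% in Rest_het. The part of these cell types and of that share in the matrix levels was not tested.

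**Figure D5:**
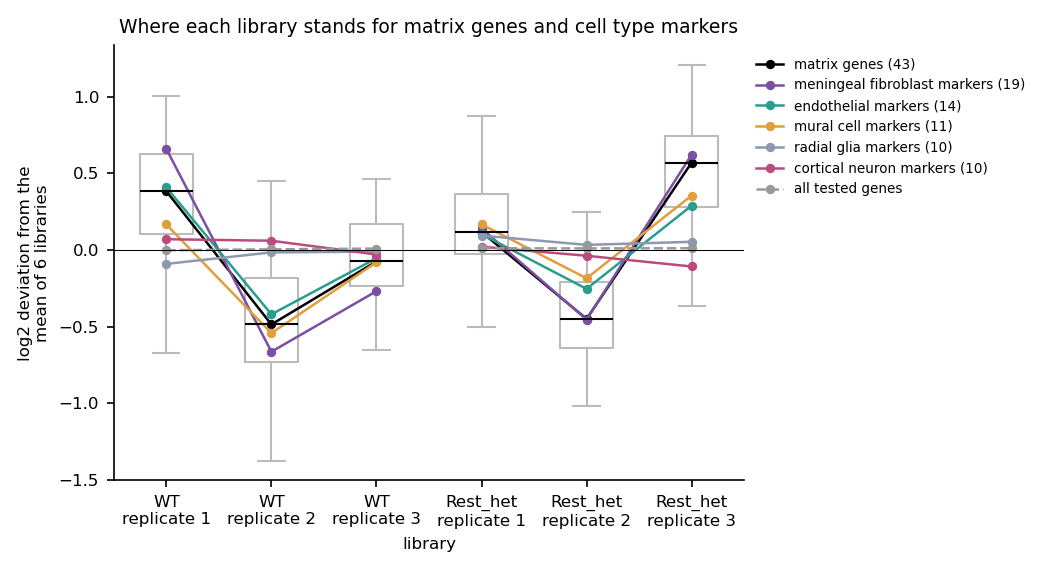
Median log2 deviation of each library from the mean of the 6 libraries (vertical axis) for the matrix genes, for marker lists and for all tested genes; boxes span the quartiles of the 43 matrix genes and whiskers reach 1.5 box lengths. Matrix genes and meningeal fibroblast markers are high in WT replicate 1 and Rest_het replicate 3 and low in the replicates numbered 2, and radial glia and cortical neuron markers stay near 0.

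Genes that make, bind and break down matrix were not called either. Of 30 genes of collagen biosynthesis 26 were tested, 20 of them above 0, and the median difference was 0.24 (log2). The smallest p in that list belonged to Loxl1, a collagen and elastin cross-linking oxidase (0.717, 0.949 and 1.44 CPM in WT, 3.19, 2.38 and 1.43 CPM in Rest_het, edgeR adjusted p = 0.36), and P4hb, a subunit of prolyl 4-hydroxylase (168 to 175 CPM in WT, 183 to 217 CPM in Rest_het, edgeR adjusted p = 0.40). Of 23 receptors 18 were tested, with a median of 0.07. There Itgb8, an integrin chain of radial glia, measured 5.64 to 7.31 CPM in WT and 4.16 to 4.67 CPM in Rest_het (edgeR adjusted p = 0.36), and Itga5, the fibronectin receptor chain, 1.80 to 2.90 and 2.77 to 5.79 CPM (edgeR adjusted p = 0.41).

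All 26 other matrix genes were tested, with a median of -0.02. Fbln1, a basement membrane glycoprotein gene, measured 21.8, 23.3 and 23.3 CPM in WT and 32.0, 26.9 and 34.3 CPM in Rest_het, with separate groups (log2 fold change 0.45, SE 0.11, edgeR unadjusted p = 0.0037, adjusted p = 0.32). Emilin1, an elastic fibre glycoprotein gene, was also separate, at 1.32 to 2.42 CPM in WT and 2.83 to 4.52 CPM in Rest_het (edgeR adjusted p = 0.34). The other 2 separate genes of the list, Vcan and Ntn4, were lower in Rest_het (log2 fold change -0.35 and -0.27, edgeR adjusted p = 0.34 and 0.39). Of 16 proteases and inhibitors 15 were tested, with a median of 0.35 and 10 above 0. Htra1, a secreted serine protease, measured 2.68, 3.48 and 3.40 CPM in WT and 9.30, 5.49 and 4.62 CPM in Rest_het, and Adamts5, which cleaves proteoglycans, 2.27 to 2.96 and 3.35 to 5.10 CPM. Both had separate groups and edgeR adjusted p of 0.34 and 0.40. Mmp16 was separate in the other direction, lower in Rest_het (log2 fold change -0.20, edgeR adjusted p = 0.45). None of these 4 lists held a called gene in either direction. Of the 26, 18, 26 and 15 genes tested in them, in the order given, 2, 1, 2 and 2 were separate and higher in Rest_het. Those separate and lower numbered 1, 1, 2 and 1. Among all genes tested, 10.4% were separate and higher and 8.94% separate and lower.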

How the data were processed

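RNA was measured in 6 libraries, 3 WT and 3 Rest_het, grouped by the genotype in the labels and numbered as in the titles. Per the labels' protocols, cDNA was made with oligo dT and a template-switching oligo, amplified, tagmented and sequenced as paired reads. Without strand marks or molecular identifiers, duplicates from PCR stay in the counts. The authors deposited whole-number read counts per gene, and the submitters' processing notes name STAR 2.5.2a and the build GRCm38.p4. The column that ignores strand was taken. They also deposited a table of normalized signal per gene, for which the notes name DESeq2 without a version. Read pairs in no gene (21.4 to 26.9%), ambiguous (2.54 to 2.85%), multimapping or unmapped stayed out of library sizes. The annotation used for counting is not given in the sources used here; exon lengths and positions came from a GENCODE annotation of GRCm38.

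Counts of all genes were tested with edgeR 4.0.16 in R 4.3.3 (quasi-likelihood, TMM, filterByExpr at 10 reads and 15 in total, genotype as the single term), with Benjamini-Hochberg adjustment over 15385 genes and a call at an adjusted p under 0.05. The SE was taken as the absolute log2 fold change over the square root of F. Deviations used log2 of CPM plus 0.1. Alternatives were DESeq2 1.42.0, its size factors in edgeR, no filter, CPM 1 in 3 libraries, limma 3.58.1 on log2 of the deposited signal plus 1 (genes with a mean of at least 10), the replicate block and each library left out. The fit was checked on simulated data. Every library is given for the 12 most abundant tested members, the 10 with the smallest p and the top member of each of 9 role lists; Col22a1 and other chains are given by range. From other lists, the 2 genes with the smallest p are given, and Vcan, Ntn4 and Mmp16 by fold change. The values of 1 member are not reported here. The members and lists were chosen with earlier results of these data known. Plots used Python 3.11.15 and matplotlib 3.10.9.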

Additional observations from a re-analysis of the deposited data

Results flagged for a closer look

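The count files also list transgene sequences, which no comparison used. LacZ had 27, 51 and 43 reads in WT, 121 in all, and 0 in each Rest_het library. Cre-ERT2 had 10, 16 and 17 reads in Rest_het, 43 in all, and 0 in each WT library. At 95% confidence, an observed count of 0 allows an expected count of up to about 3 reads in a library. With 3 libraries a group, no test for an outlying library was made for any member.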

How the results depend on the processing

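No member was called by edgeR as described or in 12 of the 14 alternatives, and Col4a3 was called by DESeq2 and without the filter (1 member each). Over all genes, 131 were called by DESeq2, 107 without the filter, 6 with the replicate block, 38 without both replicates numbered 2, and 12 to 35 with 1 library left out, against 19. The median log2 fold change of the members ranged from -0.115 to 0.355 with 1 library left out. The members whose groups were separate numbered 6 of 43 in the fit as described, 14% against 19.3% of all genes. With 1 library left out they numbered 6 to 15 (15 without Rest_het replicate 2, 11 without WT replicate 1 or WT replicate 3). They numbered 11 without both WT replicate 1 and Rest_het replicate 3, and 15 without both replicates numbered 2. By DESeq2 and without the filter they numbered 9 of 62, 14.5% against 13.1% and 13.3% of all genes. With fewer libraries, separation is more frequent among all genes: it held for 26.6 to 34.8% of them with 1 library left out and 13.6 to 31.9% of the members. The share of members exceeded that of all genes without Rest_het replicate 2 (31.9% against 28.6%). It was lower with any other single library left out, down to 13.6% against 34.8% without Rest_het replicate 3. In the settings without a pair, separation held for 46.0% and 40.3% of all genes, against 25.6% and 31.9% of the members. The settings with a pair of libraries left out were chosen after seeing the data. With 1 library left out, 25 members turned sign, with these lowest and highest log2 fold changes: Bgn -0.369 to 0.248, Col11a1 -0.114 to 0.312, Col11a2 -0.211 to 0.377, Col12a1 -0.217 to 0.066, Col19a1 -0.119 to 0.337, Col1a1 -0.411 to 0.457, Col1a2 -0.104 to 0.773, Col23a1 -0.296 to 0.678, Col25a1 -0.287 to 0.274, Col3a1 -0.125 to 0.71, Col4a2 -0.114 to 0.356, Col4a4 -0.433 to 0.035, Col4a5 -0.412 to 0.175, Col4a6 -0.777 to 0.165, Col5a2 -0.217 to 0.353, Dcn -0.319 to 0.725, Fn1 -0.454 to 0.22, Lama1 -0.254 to 0.201, Lama2 -0.351 to 0.302, Lama4 -0.397 to 0.146, Lamb1 -0.334 to 0.118, Lamc3 -0.478 to 0.404, Lum -0.221 to 0.793, Nid1 -0.418 to 0.245, Nid2 -0.022 to 0.792. Col1a1 and Lama1 also turned sign, to -0.001 and 0.022, both in limma on the deposited values and with the replicate block. The replicate numbers share no stated litter or batch, and the correlations of same-numbered libraries across genes were 0.01, 0.04 and -0.14, so they were not taken as pairs. Depth limits the members under 1 CPM, and 19 members had too few reads to be tested.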
